A study of Mus musculus with 6 samples.

Results

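The TAM receptors Axl, Tyro3, and Mertk and their ligands Gas6 and Pros1 were examined in 4T1 cells made resistant to the antiangiogenic drug axitinib. These 5 genes were taken by name from a table of 53465 genes, with earlier results of these data known. Each matched a single identifier, and 3 of the 5 (Axl, Tyro3, and Pros1) had enough counts to be tested. 4T1 cells are a mammary carcinoma line of the mouse and spread spontaneously to distant organs. RNA was sequenced from 3 libraries of parental cells (P) and 3 of axitinib-resistant cells (AxR). AxR cells came from a metastatic lesion that grew after surgery in mice given 100 mg/kg/day of axitinib, which inhibits VEGF receptors, and were then cultured with 0.5 μM axitinib for over 2 months. P cells are labelled parental only, and the study's text describes them as vehicle controls. The growth label nevertheless names 0.5 μM axitinib for all 6 samples. The AxR label thus covers selection in mice, derivation from a metastasis, and drug in the medium, and these cannot be told apart. It is not stated whether the 3 libraries of a line came from separate cultures, so p-values measure only the spread between these libraries, which may be technical.

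TAM receptors are receptor tyrosine kinases with immunoglobulin-like and fibronectin type III domains outside the cell. Their ligands, growth arrest-specific protein 6 (Gas6) and protein S (Pros1), act as bridges: the vitamin K-dependent end of the ligand holds phosphatidylserine on a dying cell or vesicle while the other end holds the receptor. Macrophages and epithelial phagocytes use Mertk and Tyro3 to clear dead cells, and Axl is best known in carcinoma for invasion and for tolerance of targeted drugs. Gas6 binds all TAM receptors, whereas protein S is known as a ligand of Tyro3 and Mertk.

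All 5 genes encode proteins and lie on 4 chromosomes of GRCm38. Axl (ENSMUSG00000002602.16) spans chromosome 7 from 25757273 to 25788705 on the minus strand, and its longest coding transcript has 20 exons. Tyro3 (ENSMUSG00000027298.17) spans chromosome 2 from 119797733 to 119818104 on the plus strand. Mertk (ENSMUSG00000014361.5) spans the same chromosome from 128698956 to 128802894, also on the plus strand. Pros1 (ENSMUSG00000022912.8) spans chromosome 16 from 62854307 to 62929346 on the plus strand, and Gas6 (ENSMUSG00000031451.6) spans chromosome 8 from 13465374 to 13494490 on the minus strand. Mertk and Gas6 overlap other annotated genes, and these had a count of 0 in every library.

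The start regions of Axl and Pros1, the members that fell in AxR cells, and of Gas6, which had almost no reads, are shown because the levels of factors that read such sequences were measured in the same libraries. RefSeq held a window for 5 of 5 members, from 250 bases before to 50 after its own gene start (GRCm38.p6). RefSeq starts can differ from the spans given above. The Tyro3 window, chr2:119799264-119799563, lies inside the span of that gene. Capitals mark matches on either strand to the TEAD motif GGAATG or to the GC box GGGCGG, which reads CCGCCC on the opposite strand and is bound by Sp1 and Sp3. The windows are Axl, chr7:25788684-25788983, minus strand; Pros1, chr16:62854057-62854356, plus strand; and Gas6, chr8:13494486-13494785, minus strand.
Axl: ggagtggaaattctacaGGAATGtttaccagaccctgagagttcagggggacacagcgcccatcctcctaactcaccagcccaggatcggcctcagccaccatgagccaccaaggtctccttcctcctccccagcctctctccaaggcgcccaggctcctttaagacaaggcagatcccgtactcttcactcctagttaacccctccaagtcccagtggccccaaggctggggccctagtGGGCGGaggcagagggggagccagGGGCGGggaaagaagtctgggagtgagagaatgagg
Pros1: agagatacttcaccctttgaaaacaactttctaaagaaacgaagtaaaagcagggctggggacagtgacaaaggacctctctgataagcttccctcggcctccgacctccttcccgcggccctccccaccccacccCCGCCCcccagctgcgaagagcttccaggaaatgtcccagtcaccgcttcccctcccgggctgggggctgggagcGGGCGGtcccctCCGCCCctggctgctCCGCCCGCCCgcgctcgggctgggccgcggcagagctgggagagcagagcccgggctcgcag
Gas6: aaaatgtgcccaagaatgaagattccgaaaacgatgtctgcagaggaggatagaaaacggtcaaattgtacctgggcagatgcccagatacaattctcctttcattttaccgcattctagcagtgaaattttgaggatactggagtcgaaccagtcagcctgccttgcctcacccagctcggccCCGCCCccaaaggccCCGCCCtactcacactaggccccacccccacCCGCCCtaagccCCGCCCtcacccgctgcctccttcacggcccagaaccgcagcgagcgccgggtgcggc
The Axl window held 6 CpG dinucleotides, where the median of all 32851 windows of this length was 7, and it alone among the 5 members' windows matched GGAATG, at position -233 when the start base is counted as 0. Its GC boxes lay at -10 and 14. The Pros1 window held 21 CpG and 5 GC boxes, of which 2 overlapped, and the Gas6 window held 17 CpG and 4 GC boxes. The windows of Tyro3 and Mertk, not printed, held 31 and 14 CpG and 6 and 4 GC boxes, 3 of those in Tyro3 overlapping. Of all windows, 14.7% matched GGAATG and 35.7% matched the GC box. The AP-1 motif TGANTCA, the HIF core ACGTG, and the E-box CAGGTG, which 7.81%, 19.6%, and 20.2% of all windows hold, did not match in any member's window. These motifs were chosen after the data were seen, and a match is a description of the letters only.

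Levels are given as CPM, the estimated count scaled by edgeR to the normalized library size. The libraries held 15495260 to 17294525 estimated counts, and the floor was set at 3 counts, worth 0.171 to 0.196 CPM. Floors cover counting error only. Replicates of a line differed by more than sampling noise (chi-square per degree of freedom 5.10 to 19.7), and none was merged. The difference between the lines was wide: of 13550 genes tested, 63.5% passed an adjusted p of 0.05 in either direction, 32.8% being higher and 30.8% lower in AxR cells, and in 68.3% the libraries of the lines did not overlap. Of the 3 tested members, 0 were higher and 2 were lower, and the same 2 did not overlap between the lines. Being called was thus about as frequent among the 3 as in the whole table, and the members are described below by their own values.

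Axl, the receptor with by far the most transcript, fell by 28.6% in AxR cells. P libraries had 1123, 1108, and 1107 CPM, and AxR libraries had 812, 777, and 794 CPM. The lines did not overlap, and the spread within each was small. The means were 1113 ± 8.78 CPM in P and 794 ± 17.2 CPM in AxR cells (SD, n = 3), giving a log2 fold change of -0.49 (95% interval -0.58 to -0.39, standard error 0.043, adjusted p = 1.41e-07 by edgeR's quasi-likelihood test). The exact two-sided permutation test gave p = 0.1, the smallest that 3 against 3 can reach. The log2 fold changes of all genes tested had a median of 0.0058, and Axl lay between their 5th percentile (-0.99) and their 25th (-0.33). In bulk RNA, fewer cells carrying a transcript and less transcript per cell cannot be told apart.

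Tyro3, which is known from nervous tissue and phagocytes, was expressed in both lines at a far lower level and did not pass the test. P libraries had 24.0, 24.0, and 20.9 CPM, and AxR libraries had 22.2, 25.0, and 24.7 CPM. The lines overlapped, the lowest library being a P library. The means were 23.0 ± 1.78 and 24.0 ± 1.57 CPM (SD, n = 3), and edgeR's quasi-likelihood test gave a log2 fold change of 0.06 with a standard error of 0.082 (adjusted p = 0.546). Its 95% interval ran from -0.12 to 0.23.

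Mertk, the receptor that macrophages rely on to engulf dead cells, was barely detected. Its estimated counts were 7, 3, and 8 in P libraries and 1, 7, and 2 in AxR libraries, or 0.373 ± 0.180 and 0.208 ± 0.208 CPM (SD, n = 3). These counts, 18 in P and 10 in AxR cells in all, were below the filter for the test. The lines overlapped (exact two-sided permutation p = 0.3), and a difference was not detectable at this depth.

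Pros1, the gene of protein S, was the ligand with reads in every library, and it was lower in AxR cells. P libraries had 46, 36, and 34 estimated counts, equal to 2.80, 2.08, and 2.22 CPM. AxR libraries had 20, 8, and 11 estimated counts, equal to 1.27, 0.510, and 0.626 CPM. No AxR library reached the lowest P library, and AxR replicate 1 came nearest. The means of 2.36 ± 0.381 and 0.802 ± 0.409 CPM (SD, n = 3) differed 2.94-fold, a log2 fold change of -1.56 (95% interval -2.24 to -0.88, standard error 0.318, adjusted p = 0.000527 by edgeR's quasi-likelihood test). That value lay below the 5th percentile of all genes tested. The exact two-sided permutation p was again 0.1. The value rests on few reads, and AxR replicate 1 moved it most: without that library the log2 fold change was -2.03.

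Gas6, the ligand shared by all TAM receptors, had 0 counts in each P library and 0, 1, and 1 in the AxR libraries. All 6 values were under the floor of 3 counts, so no fold change is given and the gene was not tested. Absence of Gas6 RNA is not shown, as a count of 0 allows up to 0.171 to 0.196 CPM in a library.

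**Figure D1:**
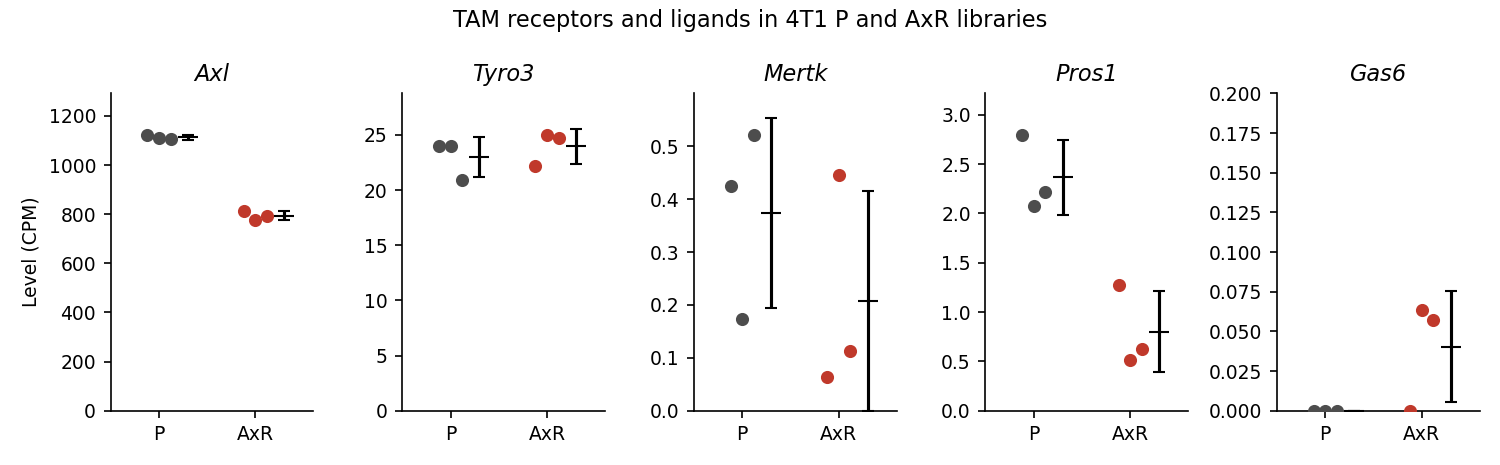
Level of each TAM receptor and ligand in CPM (vertical axes start at 0 and differ between panels) in the 3 P and 3 AxR libraries. Points are libraries and bars are the mean with the SD (drawn down to 0 at the lowest); Axl and Pros1 did not overlap between the lines, Tyro3 and Mertk did, and Gas6 stayed under the floor.

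To compare genes with each other, CPM was divided by the length of each gene's exons in kb. On this scale Axl averaged 221 CPM per kb in P and 158 in AxR cells, Tyro3 3.71 and 3.87, Pros1 0.578 and 0.196, and Mertk 0.0861 and 0.0479, and Gas6 was at 0 in P and 0.0158 in AxR cells. The order Axl, Tyro3, Pros1, Mertk, Gas6 was the same in P and AxR means. Axl, Tyro3, and Pros1 were separated in every library, whereas in AxR cells Pros1 (0.125 to 0.311) came near Mertk (0.0146 to 0.103), and Mertk and Gas6 (0 to 0.0250) overlapped. Among 13536 tested genes with a length, the mean level of Axl ranked 176 in P and 272 in AxR cells. Tyro3 ranked 8499 and 8479, and Pros1 ranked 11941 and 13097.

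Nearly all receptor transcript was Axl. Of the summed CPM per kb of the 3 receptors, Axl made up 98.3% ± 0.106 in P and 97.6% ± 0.222 in AxR cells (SD, n = 3). The Axl share was 98.3%, 98.3%, and 98.4% in P libraries and 97.8%, 97.4%, and 97.5% in AxR libraries. Tyro3 made up 1.71%, 1.73%, and 1.51% in P libraries and 2.17%, 2.54%, and 2.47% in AxR libraries, higher in 3 of 3. For both shares the lines did not overlap, and the exact two-sided permutation test gave p = 0.1, the smallest possible. With so little Mertk, the Axl and Tyro3 shares mirror each other and are not separate results. The level of Tyro3 itself overlapped between the lines. The Mertk share was 0.0383% ± 0.0185 in P and 0.0300% ± 0.0305 in AxR cells (SD, n = 3) and overlapped (exact permutation p = 0.8). Per kb there were 57.6, 56.8, and 65.1 units of Axl per unit of Tyro3 in P libraries, and 45.1, 38.3, and 39.5 in AxR libraries. The summed receptor level was 225 ± 1.92 CPM per kb in P and 162 ± 3.14 in AxR cells (SD, n = 3).

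Ligand transcript was scarce beside receptor transcript in both lines, and scarcer in AxR cells. Gas6 and Pros1 together came to 0.578 ± 0.0931 CPM per kb in P and 0.212 ± 0.0864 in AxR cells (SD, n = 3). For each unit of ligand transcript there were 332, 441, and 412 units of receptor transcript in P libraries. In AxR libraries there were 531, 1058, and 922 units. The lines did not overlap, and the log2 ratio of ligands to receptors was -8.62 ± 0.214 in P and -9.65 ± 0.527 in AxR cells (SD, n = 3), a difference of -1.03 (exact two-sided permutation p = 0.1). With Gas6 set at the floor of 3 counts in every library, an alternative chosen after seeing the data, the means were 350 units in P and 652 in AxR cells and the log2 difference was -0.85. Between Pros1 and Axl alone the log2 difference was -1.18. Nearly all of the receptor sum was Axl and most of the ligand sum was Pros1, whose protein is described above as a ligand of Tyro3 and Mertk. The ratio therefore does not measure the supply of a known ligand to Axl, for which Gas6 was under the floor. These ratios concern transcripts in the cultured cells. The medium held serum, whose own ligand protein such counts do not see.

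**Figure D2:**
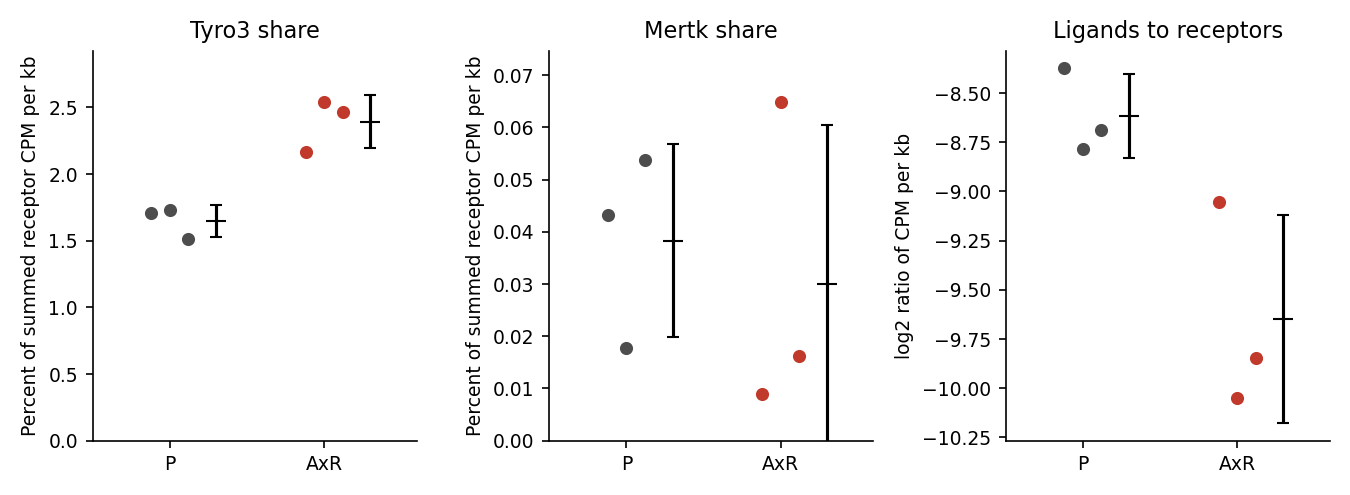
Share of Tyro3 and of Mertk in the summed receptor level (percent of CPM per kb, axes from 0) and log2 ratio of summed ligand to summed receptor CPM per kb, in 3 P and 3 AxR libraries. Points are libraries and bars the mean with the SD (drawn down to 0 at the lowest in the Mertk panel); the Tyro3 share was higher and the ligand ratio lower in every AxR library, and the Mertk share overlapped.

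Axl was also the receptor tyrosine kinase with the most transcript per kb in 4T1 cells, among 58 such genes, in both lines. In P cells the next were Epha2, an ephrin receptor (119 CPM per kb), Ddr2, a collagen receptor (46.0), Ryk, a WNT receptor (44.5), and Met, the receptor of hepatocyte growth factor (42.8). Axl held 35.4% ± 0.567 of the summed CPM per kb of the 58 genes in P and 28.6% ± 0.611 in AxR cells (SD, n = 3), lower in 3 of 3 libraries (exact two-sided permutation p = 0.1). The sum was 624 CPM per kb in P and 551 in AxR cells, and without Axl it was 403 and 393. That remainder was not flat gene by gene, as gains of Fgfr2 (32.9 CPM per kb), Ddr2 (15.3), and Epha1 (10.1) stood beside losses. A gain of another kinase also lowers the percentage held by Axl. In absolute level Axl had the largest loss of the 58, with a difference of -63.3 CPM per kb, ahead of Epha2 (-37.8) and Ryk (-16.4). In relative terms its fall was moderate, as 8 of the 29 tested kinases had a lower log2 fold change. Tyro3 ranked 19 in P and 17 in AxR cells, and Mertk ranked 30 and 32. Of the 29 tested, 7 were higher and 11 lower, which is 62.1% against 63.5% of all genes tested, with a median log2 fold change of -0.11.

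**Figure D3:**
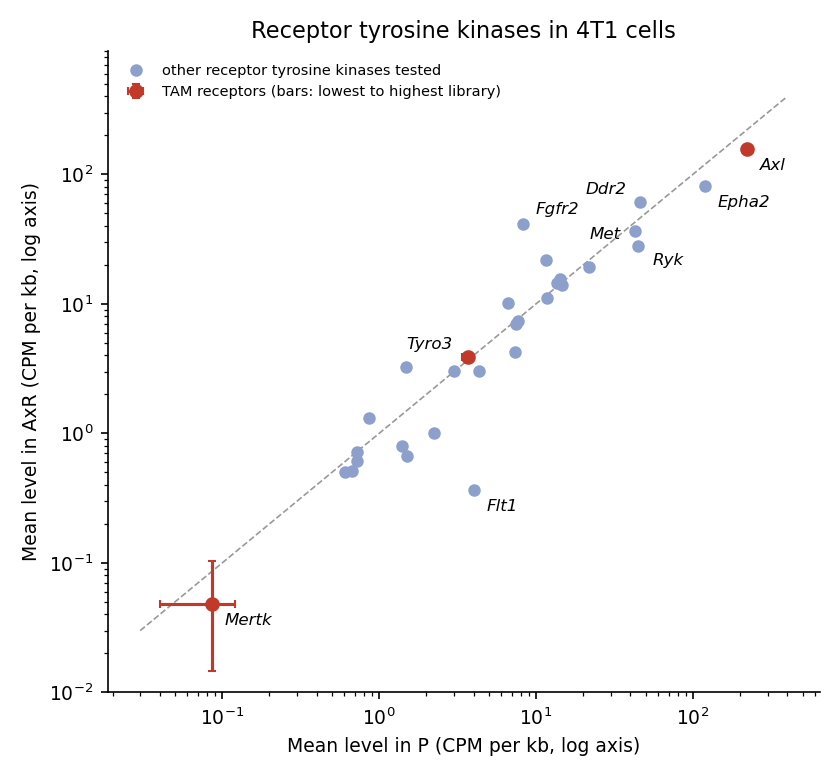
Mean level of receptor tyrosine kinases in P (horizontal) and AxR cells (vertical), both in CPM per kb on log axes, for the 29 tested genes and Mertk. Axl lies highest on both axes and below the dashed line of equal level, Tyro3 lies on it, and Mertk is the lowest point; bars on the TAM receptors run from the lowest to the highest library.

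The genes next to the members on their chromosomes moved in both directions. Of all genes tested, 32.8% were higher and 30.8% lower. Of the 20 tested neighbours of Axl, 10 on each side, 8 were higher and 3 lower, with a median log2 fold change of 0.30. The median over chromosome 7 was 0.18 (1011 genes tested). The nearest on each side, Hnrnpul1 and Rnf170-ps, had log2 fold changes of 0.49 and 0.23. The 20 neighbours of Pros1 were split between 8 higher and 8 lower with a median of 0.08, while chromosome 16 as a whole had a median of -0.32 (397 genes). Its nearest tested neighbours were Arl13b and 4930453N24Rik, at 0.04 and 0.30. Around Tyro3, 7 neighbours were higher and 6 lower (median -0.03), the nearest being Rpap1 (0.32) and Mga (0.19). Around Mertk 4 of 20 were higher and 12 lower (median -0.35), the only region with a majority lower. The nearest there were Anapc1 (0.40) and Tmem87b (-0.36). Chromosome 2, which holds Tyro3 and Mertk, had a median of -0.09 (1066 genes). Around Gas6 5 were higher and 6 lower (median -0.04), with Tfdp1 at -0.14 and Rasa3 at -1.36, and chromosome 8 had a median of -0.18 (749 genes).

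The genes whose profile over the 6 libraries lay nearest to each tested member were taken from 9250 genes with at least 10 CPM, by the root mean square difference of centred log2 CPM. For Axl these were Pak2 (0.0151), Ltn1 (0.0195), and Cul3 (0.0207). For Tyro3 they were Fam234a (0.0214), Sgf29 (0.0270), and Snx33 (0.0394). For Pros1 the nearest of those searched were Rnf128 (0.245), Armcx4 (0.248), and Tnc (0.271). Pros1 rests on 8 to 46 counts per library, and no gene as low as Pros1 was searched. Its larger distances therefore cannot be set against those of Axl and Tyro3.

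Gas6 and protein S work as TAM ligands only after gamma-carboxylation, for which vitamin K is recycled. Of the 7 genes of ligand maturation, all tested, 2 were higher and 2 lower in AxR cells (57.1% against 63.5% of all genes), with a median log2 fold change of -0.03. Aifm2, which encodes FSP1 and can reduce vitamin K, rose from 13.7 ± 1.01 to 27.2 ± 1.72 CPM (SD, n = 3; log2 fold change 0.98, adjusted p = 9.12e-08 by edgeR's quasi-likelihood test). Ggcx, the carboxylase itself, rose by 0.36 (log2), a call that was lost without P replicate 3 (0.29, adjusted p = 0.0513 by the same edgeR test). Furin, a protease that removes propeptides, and Vkorc1l1, a vitamin K epoxide reductase, fell by 0.40 and 0.21 (log2). Vkorc1, the reductase that warfarin inhibits, did not pass, at 5.21 ± 0.321 and 5.06 ± 0.712 CPM (SD, n = 3).

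Axl and Mertk are cut from the cell surface by ADAM proteases. Of 10 genes of receptor shedding, 9 were tested, 3 were higher and 2 lower (55.6%), and the median log2 fold change was 0.02. Adam17, a sheddase, and Rhbdf1, which carries it to the surface, rose by 0.25 and 0.38 (log2). Adam10, the sheddase named most often for Axl, had 186 ± 10.3 CPM in P and 202 ± 18.6 CPM in AxR cells (SD, n = 3) and did not pass (adjusted p = 0.119 by edgeR's quasi-likelihood test), but did without AxR replicate 3 (log2 fold change 0.20, adjusted p = 0.00521 by the same edgeR test). Members of gamma-secretase, which cuts the remaining stub, moved apart: Aph1a rose by 0.27 (log2), whereas Psen2 and Ncstn had log2 fold changes of -0.90 and -0.30. Timp3, an inhibitor of the sheddases, was at the floor in both lines.

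Inside the cell, 25 of 26 genes of TAM adaptors and signal relay were tested, of which 8 were higher and 11 lower (76%) with a median log2 fold change of -0.04. Src had 196 ± 7.70 CPM in P and 95.7 ± 6.42 CPM in AxR cells (SD, n = 3; log2 fold change -1.03, adjusted p = 8.82e-10 by edgeR's quasi-likelihood test), while its relative Fyn rose by 0.84 (log2). Cbl and Cblb, ubiquitin ligases that remove activated receptors, went in opposite directions, with log2 fold changes of -0.71 and 0.69. Pik3r2, a regulatory subunit of phosphoinositide 3-kinase, rose by 0.59 (log2), and Elmo1, which links engulfment receptors to Rac, had a log2 fold change of -0.70. Grb2, which binds phosphorylated Axl directly, did not pass, with 98.1 ± 1.62 and 95.3 ± 1.75 CPM (SD, n = 3). Pik3r1 and Vav2 were also called higher. The call of Pik3r1 was lost when P replicate 1, P replicate 2, or AxR replicate 2 was left out, and that of Vav2 when any library but AxR replicate 1 was.

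Phosphatidylserine on the cell surface lies at the far end of the bridge. Of 8 genes for its exposure or return, all tested, 2 were higher and 4 lower (75%), with a median log2 fold change of -0.15. The scramblase Ano6 had a log2 fold change of -0.51, and the flippase Atp11a and the flippase subunit Tmem30a had -0.39 and -0.49. Bsg, a partner that brings the scramblase Xkr8 to the membrane, rose by 0.60 (log2), and the flippase Atp11b and the scramblase-family gene Plscr1 did not pass. Xkr8 itself, also called higher, had 3.20 ± 0.530 CPM in P and 4.58 ± 0.675 CPM in AxR cells (SD, n = 3), and its call was lost with any library but P replicate 2 or AxR replicate 3 left out.

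Among 15 genes of other phosphatidylserine receptors and bridging proteins, 8 were tested, of which 3 were higher and 2 lower (62.5%), with a median log2 fold change of 0.23. Lrp1, a large endocytic receptor, had 357, 358, and 338 CPM in P libraries and 1130, 1166, and 1220 CPM in AxR libraries. No library of a line came near the other line (log2 fold change 1.74, standard error 0.049, adjusted p = 5.21e-13 by edgeR's quasi-likelihood test). Mfge8, a secreted bridge between phosphatidylserine and integrins, rose by 0.54 (log2). Of the integrin subunits it binds, Itgb5 rose by 0.72 and Itgav fell by 0.47 (log2). Stab1, a scavenger receptor, fell from 14.1 ± 0.770 to 4.79 ± 0.650 CPM (SD, n = 3). The receptors Timd4, Havcr1, and Adgrb1 had no count in any library, as had Tulp1.

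Of 21 reported regulators of Axl transcription, 18 were tested, of which 4 were higher and 8 lower (66.7%), with a median log2 fold change of -0.04. The AP-1 subunits divided: Fosl1 fell from 223 ± 16.5 to 71.0 ± 9.47 CPM (SD, n = 3; log2 fold change -1.65, adjusted p = 1.64e-08 by edgeR's quasi-likelihood test), and Jun and Junb had log2 fold changes of -0.77 and -0.55, whereas Fosb rose by 1.31. Fosl2 and Jund did not pass. Yap1 and Wwtr1 (TAZ), coactivators of the TEAD factors, did not pass, with log2 fold changes of 0.06 and -0.03. The TEAD factors Tead1, Tead2, and Tead4 had -0.26, -0.50, and -0.61, and Tead3 did not pass. Hif1a rose by 0.42 (log2). Twist1 was called lower, with a log2 fold change of -0.55, and its libraries did not overlap between the lines. Zeb1 had at most 0.0652 CPM in P libraries, which is under the floor, and 3.19 to 3.68 CPM in AxR libraries, so that its fitted value is not printed. Sp1, a GC-box factor, did not pass, and the call of Sp3 (-0.16) was lost without 5 of the 6 single libraries and that of Fos, which was higher, without P replicate 1 or AxR replicate 2.

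Of 8 receptor partners of Axl, 6 were tested, with 1 higher and 3 lower (66.7%) and a median log2 fold change of -0.23. Erbb3 rose by 0.62 (log2), and Pdgfra, Epha2, and Met had log2 fold changes of -1.15, -0.55, and -0.22. Egfr and Erbb2 did not pass. The list medians and counts stand beside a background of 63.5% of genes called and a median of 0.0058, so no list is singled out by them.

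**Figure D4:**
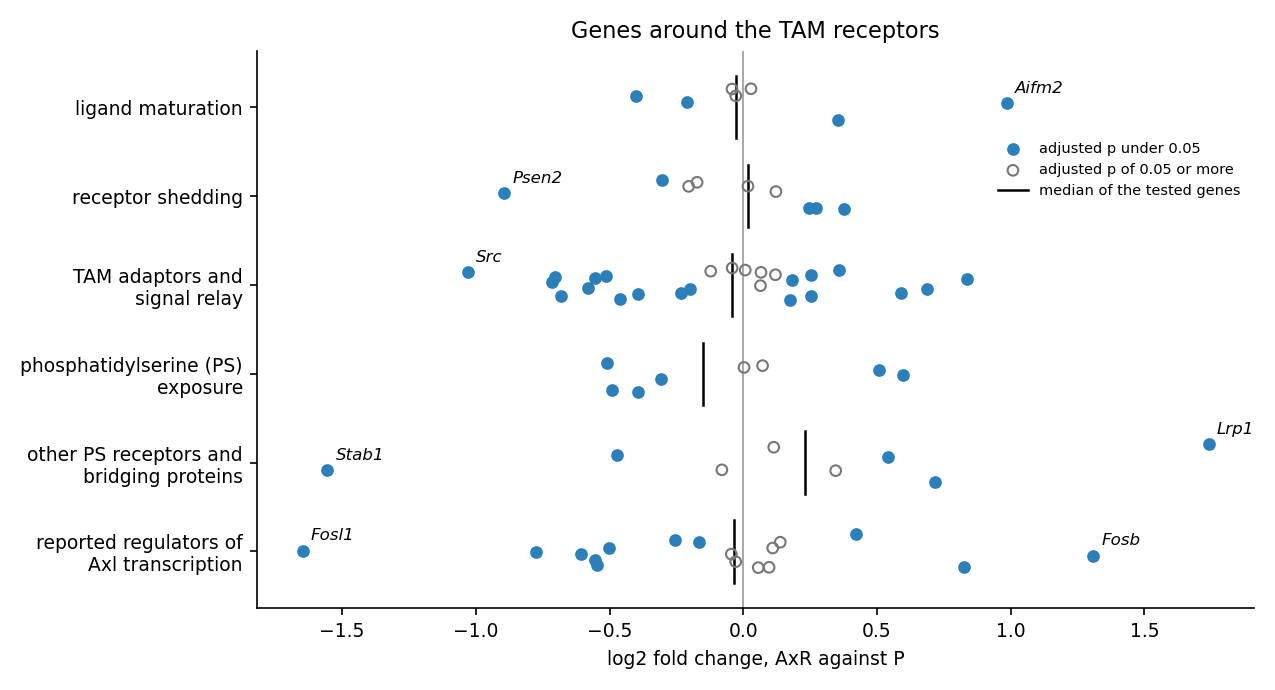
log2 fold change of AxR against P (horizontal) for the tested genes of 6 lists around the TAM receptors. Points are genes, filled where edgeR's adjusted p was under 0.05, and bars are list medians; every list but the first 2 reaches beyond 0.5 in both directions, and Zeb1 is counted in its median but not drawn because P libraries were under the floor.

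The label of mammary carcinoma cells was checked against markers. Of 12 epithelial markers 11 were tested, of which 7 were higher and 4 lower in AxR cells, where 63.5% of all genes tested were called. Krt14, Krt7, Esrp1, Epcam, Krt8, Cdh1, and Krt18 were higher (log2 fold changes 2.45, 0.96, 0.82, 0.78, 0.68, 0.60, and 0.36). Cldn7, Krt19, Cldn3, and Cldn4 were lower (log2 fold changes -3.43, -1.31, -0.94, and -0.17). The summed level of the 12 was 2346 to 2578 CPM in P and 3541 to 3677 CPM in AxR libraries, with Krt5 at 0. Among 14 macrophage markers, Adgre1, Tyrobp, Fcer1g, C1qa, C1qb, and C1qc were at 0 in every library, 12 had at most 14 counts, and Cd68 and Cd14 were tested and were higher in AxR cells (log2 fold changes 1.24 and 1.26). Their summed level was 6.26 to 8.48 CPM in P and 16.6 to 17.5 CPM in AxR libraries. None of 9 endothelial or 9 fibroblast markers was tested, with summed levels of at most 0.808 and 1.28 CPM and Kdr, Emcn, and Cldn5, and Col3a1, Lum, and Thy1, at 0. The part of these shifts in the lower Axl and Pros1 was not tested.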

How the data were processed

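RNA from 4T1 P and AxR cells was sequenced from stranded, poly(A)-selected libraries, 3 per line. Per the submitters' processing notes and the study's methods, the authors used FastQC 0.11.5 for read quality, STAR 2.6.0a for alignment to GRCm38 (GENCODE M16 gene models), and RSEM 1.3.1 for quantification. They deposited its estimated counts, in which a read matching several genes is divided among them, so that 10.3% to 10.7% of all 53465 values per library, genes at 0 included, lay more than 1e-06 from a whole number. Total estimated counts of 15495260 to 17294525 per library set the depth.

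Estimated counts were rounded, filtered with filterByExpr, normalized by upper quartile (factors 0.966 to 1.02), and tested in edgeR 4.0.16 (R 4.3.3) with its robust quasi-likelihood F test, the model holding line alone. Benjamini-Hochberg adjustment ran over 13550 genes, and calls used 0.05. CPM scales a count to the normalized library size, and its log2 form used a prior count of 2. Symbols and union exon lengths were read from GENCODE M21 (same build, later release), which held 53360 of 53465 identifiers, and promoter windows from RefSeq. Ratios and shares were computed per library and compared with exact two-sided permutation tests. The tests were tried on simulated counts with known changes in 200 genes per draw. Far more genes were called in the data, so the trial does not show how the tests behave when most genes differ.

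Members and lists were chosen with earlier results of these data known. Besides the members, genes were named per list as the called genes with the 3 largest rises and falls at 5 CPM or more in the higher line, and where a sentence on a role needed one. The alternatives were TMM, library size only, DESeq2 1.42.0, voom of limma 3.58.1, other filters, a replicate block, another threshold, other lengths, and each library left out. No library was left out of the values reported.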

Additional observations from a re-analysis of the deposited data

How the results depend on the processing

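At an adjusted p of 0.05, Axl and Pros1 stayed lower and past the threshold in every other fit that tested them (other normalizations, tools, and filters, the replicate block, and each library left out), and Tyro3 stayed under it. The log2 fold change of Axl ranged from -0.51 to -0.47 (adjusted p by edgeR, DESeq2, or limma from 4.04e-26 to 6.23e-06). That of Pros1 ranged from -2.03 to -1.33 (adjusted p from 3.34e-06 to 0.00454, same tools) and that of Tyro3 from 0.00071 to 0.12 (adjusted p from 0.260 to 0.995). With at least 10 counts required in every library Pros1 was not tested, since AxR replicate 2 had 8. Without a filter edgeR fitted Mertk at -0.83 (adjusted p = 0.382), and Gas6, on 2 counts, also did not pass (adjusted p = 0.341). The other alternatives were not compared for Mertk and Gas6, because the filter of the main fit had removed both. The log2 ratio of Gas6 to Pros1 could not be computed, as Gas6 was at 0 in 4 libraries. A second threshold, a log2 fold change of 1 or more in size, would end the call of Axl (-0.49) and keep that of Pros1 (-1.56). It moved the counts most, to 1083 higher and 640 lower in the whole table. For higher and lower genes it left 0 and 0 in ligand maturation, in receptor shedding, and in phosphatidylserine exposure, 0 and 1 in TAM adaptors and in receptor partners of Axl, 1 and 1 in other phosphatidylserine receptors, and 2 and 1 in regulators of Axl. Higher genes of phosphatidylserine exposure numbered 1 with DESeq2, and higher receptor partners numbered 2 without a filter, Pdgfrb being added. With single libraries left out, higher genes numbered 1 to 2 in ligand maturation and 1 to 2 in phosphatidylserine exposure. Of 182 list counts under other settings, 175 were within 1.5 times the reported ones. The Axl share differed between the lines by -0.90 to -0.64 percentage points and the log2 ratio of ligands to receptors by -1.33 to -0.83. Same-numbered P and AxR libraries did not deviate together over the whole table (correlations -0.0213, -0.0061, and -0.0217 over 13550 genes). A pairing that touches few genes would not show in such correlations, so whether the numbers pair the libraries is not settled. With the replicate block the log2 fold changes were -0.49 for Axl, -1.58 for Pros1, and 0.06 for Tyro3, and no call of a member changed. In the lists the block added Rhbdf2 and lost Pik3r1, Vav2, and Sp3. Leaving out AxR replicate 1 added Tns2 and Lgals3, leaving out AxR replicate 2 added Jund, and leaving out AxR replicate 3 added Adam10, Rhbdf2, Vav3, Sp1, and Egfr. Depth limits Pros1, Mertk, and Gas6, with at most 46 counts in a library.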
